A study of Mus musculus with 32 samples.

Results

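Bone marrow-derived macrophages (BMDMs) that had never been exposed to 4-hydroxytamoxifen (4-OHT) were compared between the last 2 days of a culture time course, day 4 against day 3. The comparison uses 8 of the 32 libraries of the series, 4 per day. They were taken by their labels as untreated, of either genotype and sampled on day 3 or day 4, and genotype was kept as a covariate. Deletion of *Trex1* does not enter the comparison, because both *Trex1* WT/FL and *Trex1* FL/FL cells keep their *Trex1* alleles intact until 4-OHT activates the recombinase.

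The study asked how fast macrophages respond once TREX1, an exonuclease that degrades DNA in the cytosol, is lost, and untreated cells served as its controls. Macrophages of *Trex1* WT/FL and *Trex1* FL/FL mice, both carrying R26 CreERT2, were grown from bone marrow for 6 days in medium with 30% L929 supernatant, which supplies macrophage colony-stimulating factor, and were then seeded. Treated cultures received 2 µg/ml 4-OHT for 22 h, untreated cultures did not, and days are counted from the end of that window. Each combination of genotype and day is covered by 2 untreated libraries. Both genotypes carry the same Cre allele, the WT/FL cells have 1 floxed *Trex1* allele and the FL/FL cells have 2. The labels give no animal, age, sex, batch or replicate number, so the p-values measure the spread between these libraries, which may be technical in part.

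A macrophage in culture depends on macrophage colony-stimulating factor, which drives both its survival and its division. Type I interferon (IFN), released by the cells and sensed through the IFN-α/β receptor, keeps many IFN-stimulated genes (ISGs) on through transcription factors that include STAT2 and IRF9, which bind the IFN-stimulated response element (ISRE) in promoters. Other programmes that macrophages switch with their surroundings include division, sterol synthesis under SREBP2, the oxidative stress response under NRF2 and the immediate early genes, which are transcribed within minutes of a stimulus.

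The total per library ranged from 35120505 to 56904143 estimated counts. Macrophage markers were abundant in every library: *Adgre1*, which encodes F4/80, had 4050 to 4670 CPM (counts scaled to library size) and *Csf1r*, the receptor of macrophage colony-stimulating factor, 4640 to 5930 CPM. *Cd3e*, *Ncr1*, *Mcpt4* and *Alas2*, which mark T cells, natural killer cells, mast cells and erythroid cells, had 0 counts in all 8 libraries, and *Ly6g* of neutrophils had at most 5 counts. Other markers of such cells were present: *S100a8* of neutrophils had 61 to 209 counts per library, and *Ighm* of B cells is given below. Within each of the 4 groups, the counts of the 2 libraries were farther apart than sampling alone gives (chi-square per degree of freedom 9.7 to 14.7), with Pearson's r of 0.983 to 0.989 across genes, which are not independent replicates. The FL/FL day 4 replicate 2 stood apart on the second principal component, at -40.2 where the others lay between -10.9 and 19.5, and this component held 14.2% of the variance. Values without it are given where they matter. In bulk RNA, fewer cells of a type and less RNA per cell cannot be told apart.

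Of 13856 genes tested with edgeR's quasi-likelihood test, 86 were called higher on day 4 (0.621%) and 70 lower (0.505%), with a call defined by an adjusted p (Benjamini-Hochberg) below 0.01 and a log2 change larger than 1.5 in size. Protein-coding genes made up 54 of the higher and 51 of the lower genes. In 34 of the higher and 23 of the lower genes the mean on the day of higher level was below 1 CPM. At an adjusted p below 0.05 with no minimum size, 2257 genes rose (16.3%) and 2321 fell (16.8%), and these are the counts that "rose" and "fell" refer to. The counts of each gene list below stand beside these shares of all genes. The median change over all tested genes was 0.007 on the log2 scale, with quartiles of -0.17 and 0.18. In 2179 genes the 4 day 4 libraries all lay above the 4 day 3 libraries and in 2260 genes all below, together 32% of the genes tested. Most changes were thus small and spread over both directions, with few of large size.

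**Figure D1:**
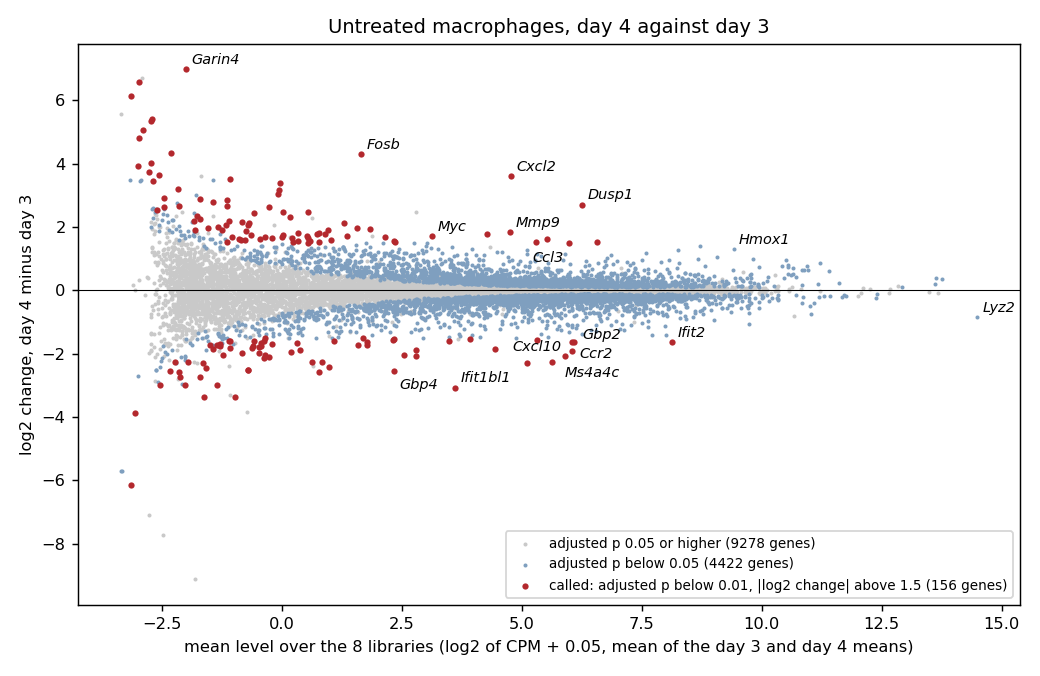
Log2 change from day 3 to day 4 (vertical axis) against the mean level over the 8 libraries (horizontal axis, log2 of CPM + 0.05), 1 point per tested gene. The 156 called genes are red, the others with an adjusted p below 0.05 are blue, and *Cxcl2*, *Dusp1* and *Fosb* stand above, *Ifit1bl1*, *Cxcl10* and *Ms4a4c* below the bulk of genes of like level.

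The promoters of 6 genes that passed the test are shown here. They were picked because matches to motifs of known factors occur in them, and genes with larger changes are not among them in every case. Each is the 250 bases before the start of the gene's canonical transcript, read from GRCm39 with the GENCODE annotation, 5′ to 3′ on the gene's own strand. Capitals in *Ifit1bl1* (chr19:34579357-34579606, minus strand) mark a match to the ISRE (GAAA and GAAA with any 2 bases between them) and in *Cxcl10* (chr5:92496749-92496998, minus strand) a match to the ISRE and 2 to a κB site (GGG and TTCC with any 3 bases between them). Capitals in *Cxcl2* (chr5:91051480-91051729, plus strand) and *Cxcl1* (chr5:91038844-91039093, plus strand) mark 3 matches each to the κB site, of which 2 overlap by all but 1 base.
Ifit1bl1: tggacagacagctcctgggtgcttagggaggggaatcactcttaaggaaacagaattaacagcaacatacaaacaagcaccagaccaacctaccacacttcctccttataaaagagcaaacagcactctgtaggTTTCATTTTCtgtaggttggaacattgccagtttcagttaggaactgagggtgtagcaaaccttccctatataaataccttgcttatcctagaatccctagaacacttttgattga
Cxcl10: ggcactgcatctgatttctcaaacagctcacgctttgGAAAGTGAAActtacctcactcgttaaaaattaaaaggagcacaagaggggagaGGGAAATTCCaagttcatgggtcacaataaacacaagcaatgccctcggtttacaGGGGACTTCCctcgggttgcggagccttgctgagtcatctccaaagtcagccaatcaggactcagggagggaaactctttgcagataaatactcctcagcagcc
Cxcl2: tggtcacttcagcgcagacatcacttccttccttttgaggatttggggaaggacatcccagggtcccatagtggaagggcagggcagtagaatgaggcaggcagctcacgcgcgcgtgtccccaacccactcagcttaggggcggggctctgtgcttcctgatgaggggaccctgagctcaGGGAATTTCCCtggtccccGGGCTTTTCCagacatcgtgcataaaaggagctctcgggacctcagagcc
Cxcl1: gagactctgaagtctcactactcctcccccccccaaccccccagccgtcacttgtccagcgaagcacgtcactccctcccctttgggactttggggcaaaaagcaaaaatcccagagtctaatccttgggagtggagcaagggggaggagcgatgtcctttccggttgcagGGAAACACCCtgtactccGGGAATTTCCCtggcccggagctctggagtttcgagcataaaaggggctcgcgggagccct

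In *Top2a* (chr11:98915042-98915291, minus strand), capitals mark 6 matches to the CCAAT box, CCAAT, and 1 to the cell cycle homology region (CHR), TTTGAA, both known from promoters of genes of G2 and mitosis. In *Dusp1* (chr17:26727494-26727743, minus strand) they mark a match to the cAMP response element (CRE), TGACGTCA, from 96 to 89 bases before the start. The *Top2a* window overlaps a longer annotated transcript of the gene, and that of *Dusp1* lies within the span of one.
Top2a: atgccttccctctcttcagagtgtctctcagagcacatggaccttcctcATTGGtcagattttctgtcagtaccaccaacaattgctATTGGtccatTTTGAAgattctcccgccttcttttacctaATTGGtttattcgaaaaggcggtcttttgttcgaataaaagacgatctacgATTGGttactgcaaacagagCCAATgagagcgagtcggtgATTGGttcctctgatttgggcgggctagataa
Dusp1: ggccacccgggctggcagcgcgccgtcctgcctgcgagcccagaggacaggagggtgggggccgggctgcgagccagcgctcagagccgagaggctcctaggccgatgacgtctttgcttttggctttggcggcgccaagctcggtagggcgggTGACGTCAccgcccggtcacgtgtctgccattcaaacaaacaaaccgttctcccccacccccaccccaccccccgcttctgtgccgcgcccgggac

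Both strands were searched in the same window of 12053 tested protein-coding genes. The ISRE occurred in 29 of 83 promoters of type I IFN-inducible genes (34.9%) and in 3.29% of all promoters. The κB site occurred in 13 of 51 promoters of the NF-κB and TNF-inducible list (25.5%) and in 5.27% of all. The CCAAT box occurred in 33 of 54 G2/M promoters (61.1%; 36.4% of all) and the CHR in 17 of them (31.5%; 12.4% of all). A site of E2F factors, TTTNGCGC, occurred in 7 of 43 S phase promoters (16.3%; 1.85% of all), and the CRE in 5 of 30 immediate early promoters (16.7%; 2.02% of all). The antioxidant response element, TGACNNNGC, occurred in 4 of 25 promoters of NRF2 targets (16%; 10.8% of all) and the E-box, CACGTG, in 5 of 31 promoters of the ribosome biogenesis and Myc list (16.1%; 7.95% of all). A match describes these letters and is not shown to be a bound site.

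Type I IFN-inducible genes were lower on day 4 almost without exception. Of 83 members tested, 81 fell and 0 rose, with a median log2 change of -0.76 and a range of -3.07 to 0.04. In 79 members all 4 day 4 libraries lay below all 4 day 3 libraries, as they did in 2260 of the 13856 genes tested. Without the FL/FL day 4 replicate 2, 80 fell and the median was -0.75. The list was compiled by hand with earlier results of these data known, so its counts are not independent of them. Its mean level per library ran from 6.74 to 6.94 log2 CPM on day 3 and from 5.80 to 6.04 on day 4. The members outside the test threshold were *Oas2*, at 0.04, and *Shisa5*, at -0.08.

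The largest decrease among genes named by rule was that of *Ifit1bl1* (chr19:34570291-34579356), a member of the family of IFN-induced proteins with tetratricopeptide repeats. On day 3 it had 27.1 and 40.8 CPM in the WT/FL and 38.6 and 33.3 CPM in the FL/FL libraries, and on day 4 it had 3.20 and 3.75 CPM in the WT/FL and 4.10 and 5.97 CPM in the FL/FL libraries. Every day 4 library was far below every day 3 library in both genotypes. The change was -3.07 ± 0.20 on the log2 scale (SE, adjusted p = 4.63e-05, edgeR), which is 8.40-fold lower. Of its annotated sequence, 19.3% is shared with transcripts of other genes.

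*Cxcl10* (chr5:92494497-92496748), a chemokine that attracts T cells through the receptor CXCR3, had 54.2, 94.3, 80.9 and 72.6 CPM on day 3 and 9.12, 16.5, 16.8 and 20.3 CPM on day 4, in the order WT/FL, WT/FL, FL/FL, FL/FL. The groups of libraries did not overlap, although the day 3 values spread widely. It fell by 2.30 ± 0.29 on the log2 scale (adjusted p = 0.00272). The other ligands of that receptor, *Cxcl9* and *Cxcl11*, fell by 2.12 and 2.21, at low levels of 1.59 ± 0.48 and 0.394 ± 0.10 CPM on day 3 (SD, n = 4). *Gbp4*, a guanylate-binding protein that acts on intracellular pathogens, went from 12.1 ± 2.1 to 2.08 ± 0.40 CPM, a change of -2.55 (adjusted p = 1.56e-08).

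The signal path of IFN itself moved unevenly. Here and in the groups that follow, members that are not among the genes named by rule were picked after their values were seen. The receptor chains *Ifnar1* and *Ifnar2* had changes of 0.01 and -0.08 that did not pass the test (adjusted p = 0.876 and 0.237, edgeR). The receptor-bound kinase *Tyk2* fell by 0.34 and the transcription factor *Irf9* by 0.24, whereas *Stat2* went from 340 ± 29.8 to 128 ± 8.8 CPM, a decrease of 1.41. *Irf7*, the factor that raises IFN-α transcription, went from 708 ± 64.9 to 371 ± 37.8 CPM (adjusted p = 2.35e-06). *Usp18*, which removes ISG15 from proteins and dampens receptor signalling, went from 59.9 ± 3.8 to 30.7 ± 3.8 CPM. Of 20 genes that encode interferons of types I to III, 18 had 0 counts in all 8 libraries. *Ifnb1* had 6 counts in the 4 day 3 libraries together and 7 in the 4 day 4 libraries, and *Ifnk* had 0 and 4. At these depths a difference in IFN transcripts was not detectable.

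Among antiviral effectors, *Ifit2* held 395 to 554 CPM on day 3 and 130 to 179 CPM on day 4, a change of -1.63. *Isg15*, the ubiquitin-like modifier, went from 97.6 ± 9.8 to 44.3 ± 7.5 CPM. *Rsad2*, which makes a chain-terminating nucleotide, fell by 1.24, *Mx1* by 1.06 and the Z-nucleic acid sensor *Zbp1* by 1.29. *Sting1*, the adaptor of the DNA sensor cGAS, had 64.9 to 71.7 CPM on day 3 and 38.6 to 44.6 on day 4 (-0.75, adjusted p = 5.93e-08), and the RNA sensor *Ifih1* had 138 to 156 and 85.8 to 90.1 CPM. *Cgas* itself was at -0.15 and did not pass the test (adjusted p = 0.233).

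*Trex1* (chr9:108887001-108888802), the gene that the floxed alleles carry, was present in both genotypes. Its levels were 124 and 135 CPM in WT/FL and 137 and 132 CPM in FL/FL libraries on day 3, and 75, 86.5, 97 and 86.7 CPM in the same order on day 4. It was lower in all 4 day 4 libraries and fell by 0.61 ± 0.06 (adjusted p = 7.87e-07, edgeR). All of the 31-base words of its annotated transcripts also occur in transcripts of other genes, so its counts depend on how reads were divided among them. *Trex1* belongs to a list of DNA nucleases and cytosolic DNA genes in which 5 of 20 rose and 7 fell (median -0.12). There the nuclease *Exo1* rose by 1.03 (adjusted p = 0.0135), the ligase *Lig1* by 0.95 and the flap endonuclease *Fen1* by 0.42.

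Genes of antigen presentation and of recognition at the cell surface fell in part. Of 20 MHC class I pathway genes, 14 fell and 2 rose (median -0.23), and of 16 MHC class II genes 6 fell and 0 rose (median -0.26). *Ciita*, the master activator of MHC class II, went from 6.99 ± 0.64 to 3.80 ± 0.87 CPM (-0.90, adjusted p = 7.84e-05). The peptide loading factor *Tapbp* fell by 0.56, and the nonclassical *H2-T22* and *H2-T23* by 0.70 and 0.62. *H2-Q7* and *H2-Q6* rose by 0.62 and 0.49, and they share 41% and 52.2% of their words with other genes. Of 7 Fc receptor genes tested, 5 fell (median -0.77): the high-affinity receptor *Fcgr1* had 307 to 339 CPM on day 3 and 158 to 221 on day 4, and *Fcgr4* had 58.7 to 71.8 and 27.3 to 43.9. Of 26 Toll-like receptors and other sensors, 15 fell and 2 rose. *Nod2*, a sensor of bacterial cell wall fragments, fell by 1.17, and *Tlr13* and *Clec4d* rose by 0.42 and 0.26.

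A few chemokines went the other way. *Cxcl2* (chr5:91051730-91053797), which attracts neutrophils, had 7.87, 7.04, 7.92 and 8.66 CPM on day 3 and 87.6, 97.2, 97 and 102 CPM on day 4, in the order WT/FL, WT/FL, FL/FL, FL/FL. The 4 values of each day lay close together and 12.2-fold apart between days, and at 3.61 ± 0.06 the change had an adjusted p of 2.08e-15 (edgeR). Its neighbours *Cxcl1* and *Cxcl3*, ligands of the same receptor CXCR2, rose by 2.13 and 1.69, to 5.01 ± 1.5 and 1.31 ± 0.42 CPM. *Ccl3* rose by 1.52, and *Ccl4* and *Ccl2* by 0.88 and 0.85. Over the 22 chemokines tested, 9 rose and 5 fell, with a median of 0.36.

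These chemokines also belong to the NF-κB and TNF-inducible list, which moved in both directions: 16 of 51 rose, 20 fell and the median was -0.03. Over all genes tested, 16.3% rose and 16.8% fell. The mean level of the list per library ran from 4.73 to 4.83 log2 CPM on day 3 and from 4.87 to 4.96 on day 4. *Tnf* rose from 9.61 ± 0.57 to 21.5 ± 2.1 CPM (1.16, adjusted p = 2.21e-08). *Il1b* went down, with 26.1, 20.9, 17.1 and 22.3 CPM on day 3 and 8.08, 6.33, 8.61 and 8.95 CPM on day 4 (-1.43). *Nos2*, which encodes inducible nitric oxide synthase, was at 0.648 ± 0.31 CPM on day 3 and 0.0860 ± 0.06 on day 4 (-2.72, adjusted p = 0.00243). *Il6*, at 0.06, and the NF-κB inhibitor *Nfkbia*, at 0.11, did not pass the test.

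**Figure D2:**
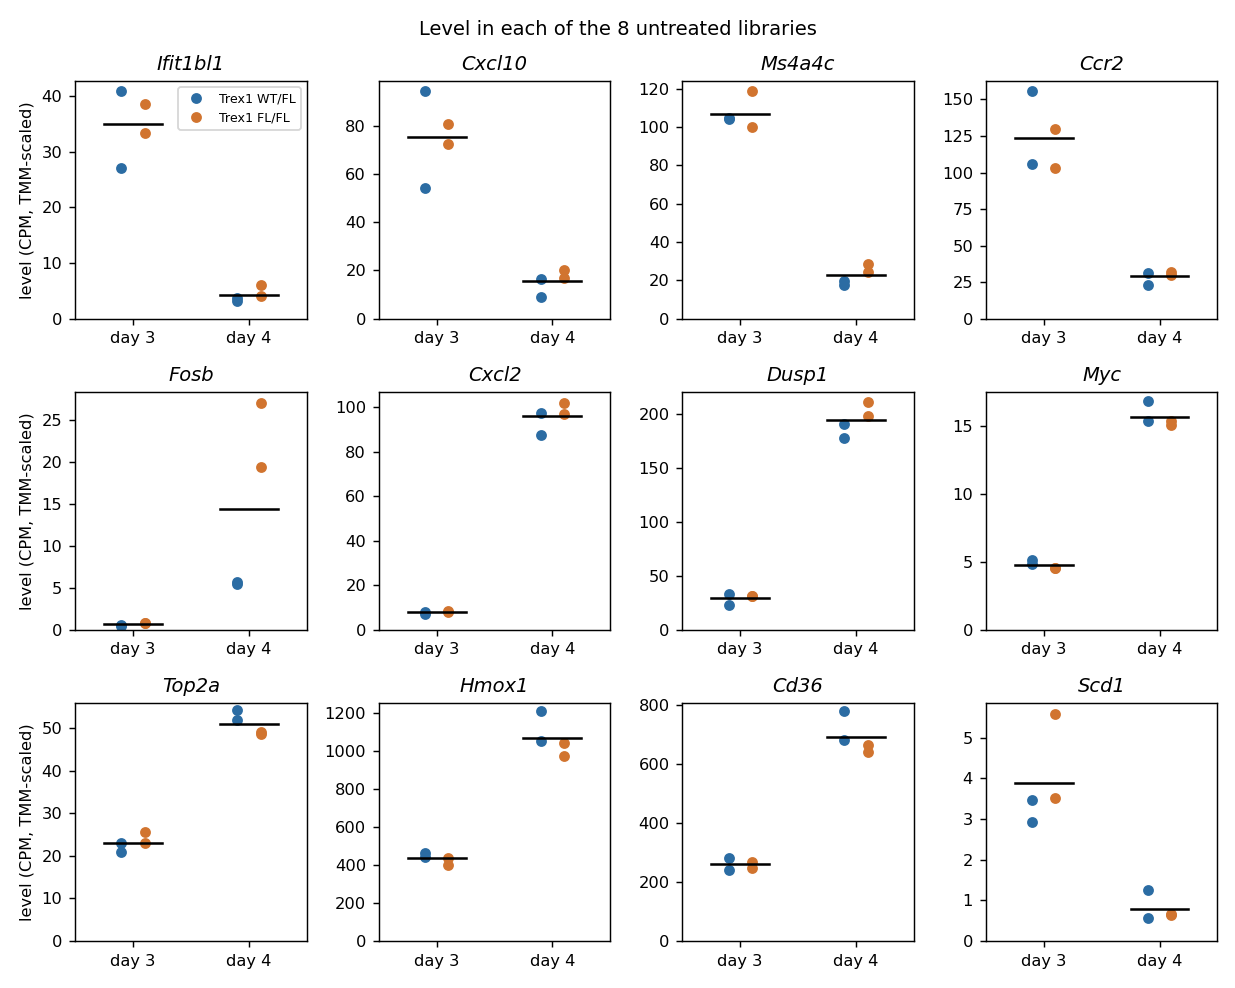
Level (CPM scaled with TMM factors, axes from 0) of 12 genes in each of the 8 libraries, WT/FL in blue and FL/FL in orange, with a bar at the mean of the 4 libraries of a day. In all 12 the days do not overlap, and for *Fosb* the FL/FL libraries of day 4, at 27.0 and 19.4 CPM, lie above the WT/FL libraries, at 5.72 and 5.46 CPM.

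Immediate early genes were higher on day 4: 17 of 30 rose and 5 fell, with a median of 0.46. *Fosb* (chr7:19036621-19043976), a subunit of the AP-1 transcription factor, had 0.553, 0.462, 0.761 and 0.770 CPM on day 3 and 5.72, 5.46, 27.0 and 19.4 CPM on day 4. It rose by 4.31 ± 0.28 (adjusted p = 7.23e-06, edgeR), by 3.45 in WT/FL and by 4.91 in FL/FL cells in the fit of all 32 libraries, and the difference between genotypes did not pass the test (1.47, adjusted p = 0.114). *Dusp1* (chr17:26724564-26781102), a phosphatase that switches off stress-activated kinases, had 33.5, 22.8, 31.2 and 31.6 CPM on day 3 and 191, 178, 198 and 211 CPM on day 4 (2.71, adjusted p = 1.07e-06). The genotypes of a day lay close together and the days did not overlap. *Fos*, *Egr1* and *Jun* rose by 1.26, 1.35 and 0.91. The orphan nuclear receptors *Nr4a1* and *Nr4a2* fell by 0.76 and 0.63, and *Fosl2* fell by 0.72. *Nr4a2* did not pass without the FL/FL day 3 replicate 1 (adjusted p = 0.0876, edgeR) or the FL/FL day 4 replicate 2 (0.0521).

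*Myc* (chr15:61857227-61862223), which drives growth and ribosome production, had 5.18, 4.85, 4.54 and 4.57 CPM on day 3 and 16.9, 15.4, 15.1 and 15.4 CPM on day 4, a rise of 1.72 ± 0.08 (adjusted p = 1.04e-09). In the list of ribosome biogenesis and Myc genes 25 of 31 rose and 1 fell, with a median of 0.37. Examples were *Polr1a*, a subunit of RNA polymerase I (0.67), and *Srm*, an enzyme of polyamine synthesis (0.67), whereas *Max*, the partner of MYC, fell by 0.18 but did not pass without the WT/FL day 3 replicate 2 (adjusted p = 0.0762, edgeR), the WT/FL day 4 replicate 1 (0.054) or the FL/FL day 4 replicate 2 (0.0575). Among 42 genes of ribosomal proteins 1 rose and 7 fell (median -0.06), beside 16.3% and 16.8% of all genes tested. In the fit of all 32 libraries the untreated WT/FL cells had a median of -0.17, with 0 that rose and 18 that fell, and the FL/FL cells one of 0.03, with 3 that rose and 1 that fell. The list mean, scaled over the 32 libraries, was 8.49 and 8.51 log2 CPM in WT/FL libraries on day 3 and 8.32 and 8.30 on day 4, and in FL/FL libraries 8.48 and 8.44 and then 8.55 and 8.49. Day 4 deviations of libraries also went with exon length, in opposite directions in WT/FL and FL/FL. A genotype difference and one in library quality therefore cannot be told apart here.

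Genes of the cell cycle were higher as well. Of 54 G2/M genes, 42 rose and 2 fell (median 0.70), and of 43 S phase genes, 34 rose and 2 fell (median 0.62). The counts without the FL/FL day 4 replicate 2 were 42 and 2 for G2/M and 33 and 1 for S phase. *Top2a* (chr11:98883769-98915062), the topoisomerase that untangles replicated chromosomes, had 23.0, 21.0, 25.5 and 23.0 CPM on day 3 and 51.9, 54.2, 49.2 and 48.6 CPM on day 4 (1.14 ± 0.06, adjusted p = 5e-09). The proliferation marker *Mki67* went from 34.8 ± 4.1 to 57.2 ± 5.8 CPM (0.72, adjusted p = 3.57e-04), and *Rrm2*, which supplies deoxynucleotides, from 4.88 ± 0.57 to 12.9 ± 0.92 CPM. *Cenpf* and *Nusap1*, proteins of the kinetochore and the spindle, rose by 1.18 and 1.17, and *Ung* and *Uhrf1*, which act in uracil repair and in copying DNA methylation, by 1.73 and 1.38. The exceptions were *Psrc1* and *Lbr* of the G2/M list, which fell by 0.89 and 0.41, and *Casp8ap2* and *Ubr7* of the S phase list, which fell by 0.21 and 0.17. Neither of the latter passed without the FL/FL day 3 replicate 1 (adjusted p = 0.053 and 0.0715, edgeR), *Ubr7* also not without the WT/FL day 3 replicate 2 (0.0639), and *Casp8ap2* also not without replicate 2 of either day 4 group (0.0534 and 0.0539).

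Inhibitors of the cell cycle split. *Cdkn1a*, which encodes p21, had 312 to 330 CPM on day 3 and 211 to 235 CPM on day 4 (-0.54 ± 0.04, adjusted p = 9.31e-08, edgeR), and *Cdkn1b*, which encodes p27, had 107 to 119 and 65.0 to 74.8 CPM (-0.68). Neither pair of ranges overlapped. *Cdkn2b* and *Cdkn1c*, which encode p15 and p57, rose by 1.27 and 1.18 from levels below 4 CPM in each day 3 library. Of 24 p53 target genes, 12 fell and 3 rose (median -0.23): *Bbc3*, a promoter of apoptosis, fell from 33.6 ± 2.4 to 17.1 ± 0.97 CPM, whereas *Gdf15*, *Plk2* and *Mdm2* rose by 0.78, 0.50 and 0.29. Of 40 cell death genes, 18 fell and 3 rose: *Bmf*, another promoter of apoptosis, fell by 0.77, and the protective *Bcl2* and *Bcl2l1* rose by 0.73 and 0.36.

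The G2/M and S phase levels of days 3 and 4 were small beside those of the start of the time course. For days 1 to 4 the levels were scaled over all 32 libraries, so those of days 3 and 4 differ slightly from the values above. The mean G2/M level over untreated libraries was 6.68, 6.13, 3.30 and 3.93 log2 CPM on days 1 to 4 (SD 0.04 to 0.10, n = 4 a day), and that of S phase was 5.94, 5.03, 3.02 and 3.60. Day 4 thus lay above day 3 and far below days 1 and 2 in both lists. The IFN-inducible list was at 4.08, 6.68, 6.92 and 6.01 log2 CPM, so that day 4 remained above day 1. *Top2a* had means of 575, 353, 24.2 and 53.2 CPM on the 4 days and *Ms4a4c*, a membrane protein of the MS4A family, 1.30, 46.9, 112 and 23.6 CPM. The steps share libraries of the days between them, so these values are set side by side without a test.

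**Figure D3:**
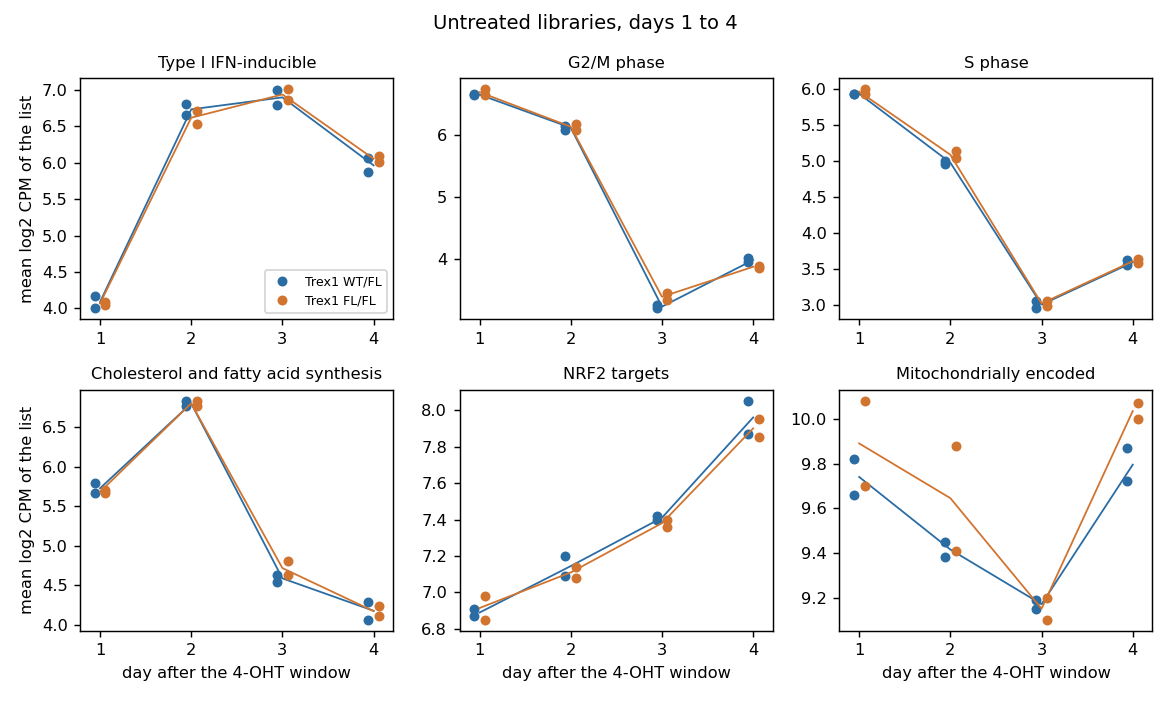
Mean log2 CPM of 6 gene lists (vertical axes, which differ in range and do not start at 0) in each of the 16 untreated libraries on days 1 to 4 (horizontal axes), WT/FL in blue and FL/FL in orange, with lines through the mean of 2 libraries. G2/M and S phase genes are lowest on day 3, IFN-inducible genes lie highest on days 2 and 3, and NRF2 targets are highest on day 4.

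Of 34 genes of cholesterol and fatty acid synthesis, 20 fell and 1 rose (median -0.34). The desaturase *Scd1* had 2.93, 3.46, 5.59 and 3.51 CPM on day 3 and 1.25, 0.56, 0.654 and 0.641 CPM on day 4 (-2.27 ± 0.28, adjusted p = 4.62e-05, edgeR), so that the days did not overlap. *Idi1* and *Sqle*, enzymes of the sterol path, fell by 1.09 and 0.80. The member that rose was *Me1* (0.79), which supplies NADPH and is also an NRF2 target. The list had stood at 5.70, 6.80, 4.65 and 4.17 log2 CPM on days 1 to 4.

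In the list of LXR targets and lipid handling, 14 of 33 rose and 4 fell (median 0.15). The median was 0.06 without the FL/FL day 4 replicate 2 and 0.04 in WT/FL libraries alone. *Cd36*, a receptor for oxidised lipoprotein and fatty acids, had 281, 242, 267 and 247 CPM on day 3 and 779, 680, 663 and 639 CPM on day 4 (1.41 ± 0.06, adjusted p = 6.39e-10). *Lpl*, which releases fatty acids from lipoproteins, rose from 1770 ± 122 to 3250 ± 289 CPM, and the lipid droplet protein *Plin2* from 542 ± 52.5 to 841 ± 18.7 CPM. The transcription factors *Pparg* and *Nr1h3*, which encodes LXRα, rose by 0.56 and 0.73. Of the 4 that fell, *Cyp27a1* went from 106 to 76 CPM, *Npc2* from 1490 to 1230 and *Ppard* from 41.3 to 35.3, scaled over all 32 libraries. *Mgll* rose by 3.21 at 0.0516 ± 0.07 and 0.438 ± 0.17 CPM, levels that rest on at most 6 and 38 counts per library.

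NRF2 targets, which protect against oxidants, rose in 20 of 25 members and fell in 3 (median 0.60; 20 and 2 without the FL/FL day 4 replicate 2). *Hmox1* (chr8:75820241-75827217), which degrades haem, had 465, 442, 401 and 437 CPM on day 3 and 1210, 1050, 1040 and 975 CPM on day 4 (1.29 ± 0.05, adjusted p = 1.75e-10). *Osgin1* and *Gsta3* rose by 1.28 and 1.21. Of members that act in glutathione supply, *Gclm* rose by 0.96, *Gsr* by 0.86 and the cystine transporter *Slc7a11* by 0.99. The 3 that fell were *Nfe2l2*, which encodes NRF2 itself (-0.34), its repressor *Keap1* (-0.14) and *G6pdx* (-0.28). *Keap1* did not pass without replicate 1 (adjusted p = 0.0846, edgeR) of FL/FL day 3 or without replicate 2 of WT/FL day 3, WT/FL day 4 or FL/FL day 4 (0.0504, 0.072 and 0.0575). Of 14 iron genes, 9 rose and 2 fell: *Tfrc*, the transferrin receptor, had 269 to 304 CPM on day 3 and 537 to 655 CPM on day 4, and *Slc48a1*, a haem transporter, rose by 0.77.

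Of 41 ATF4 and amino acid stress genes, 20 rose and 7 fell (median 0.19). *Atf4* rose from 82.3 ± 2.2 to 143 ± 6.0 CPM, the glycine transporter *Slc6a9* by 1.17 and *Ppp1r15a* by 1.08, whereas *Ddit3* was at -0.21 and did not pass the test (adjusted p = 0.158, edgeR). Genes of the ER unfolded protein response fell in 18 of 26 members and rose in 0 (median -0.21), with *Hspa5*, the main ER chaperone, at 976 to 1020 CPM on day 3 and 708 to 797 on day 4. Of 40 genes of glycolysis and hypoxia, 16 rose and 8 fell (median 0.15). *Eno2* and *Egln3* rose by 0.89 and 0.82, and *Aldoc* fell by 0.98. Of 52 lysosomal genes, 22 rose and 10 fell (median 0.07), with *Atp6v0d2* up by 0.83 and *Ctsc* down by 0.45. Without the FL/FL day 4 replicate 2, 18 of the lysosomal genes rose and 10 fell.

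Transcripts encoded by mitochondrial DNA rose in 12 of 13 cases (median 0.75), and *mt-Atp8*, at 0.71, did not pass the test (adjusted p = 0.0979, edgeR). Without the FL/FL day 4 replicate 2, which had the highest mitochondrial share of counts (3.558%), 10 rose and the median was 0.75. In the fit of all 32 libraries 7 rose in WT/FL cells (median 0.63) and 11 in FL/FL cells (median 0.91). *mt-Nd1* went from 1038 ± 57.7 to 2037 ± 241 CPM and *mt-Nd2* from 641 ± 46.1 to 1270 ± 128 CPM. Their share of all counts was 2.12% ± 0.10 on day 3 and 3.20% ± 0.27 on day 4 (SD, n = 4; two-sided exact permutation test p = 0.0286, the smallest that 4 against 4 libraries allow). Of 42 nuclear genes of the respiratory chain, 10 rose and 0 fell, with a median of 0.08, and 5 rose without the FL/FL day 4 replicate 2. By genotype, in the fit of all 32 libraries, 1 rose and 2 fell in WT/FL cells (median 0.00), and 15 rose and 0 fell in FL/FL cells (median 0.14). This split cannot be told apart from the opposite trends with exon length of WT/FL and FL/FL libraries on day 4. The part of the mitochondrial share in the other results was not tested.

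**Figure D4:**
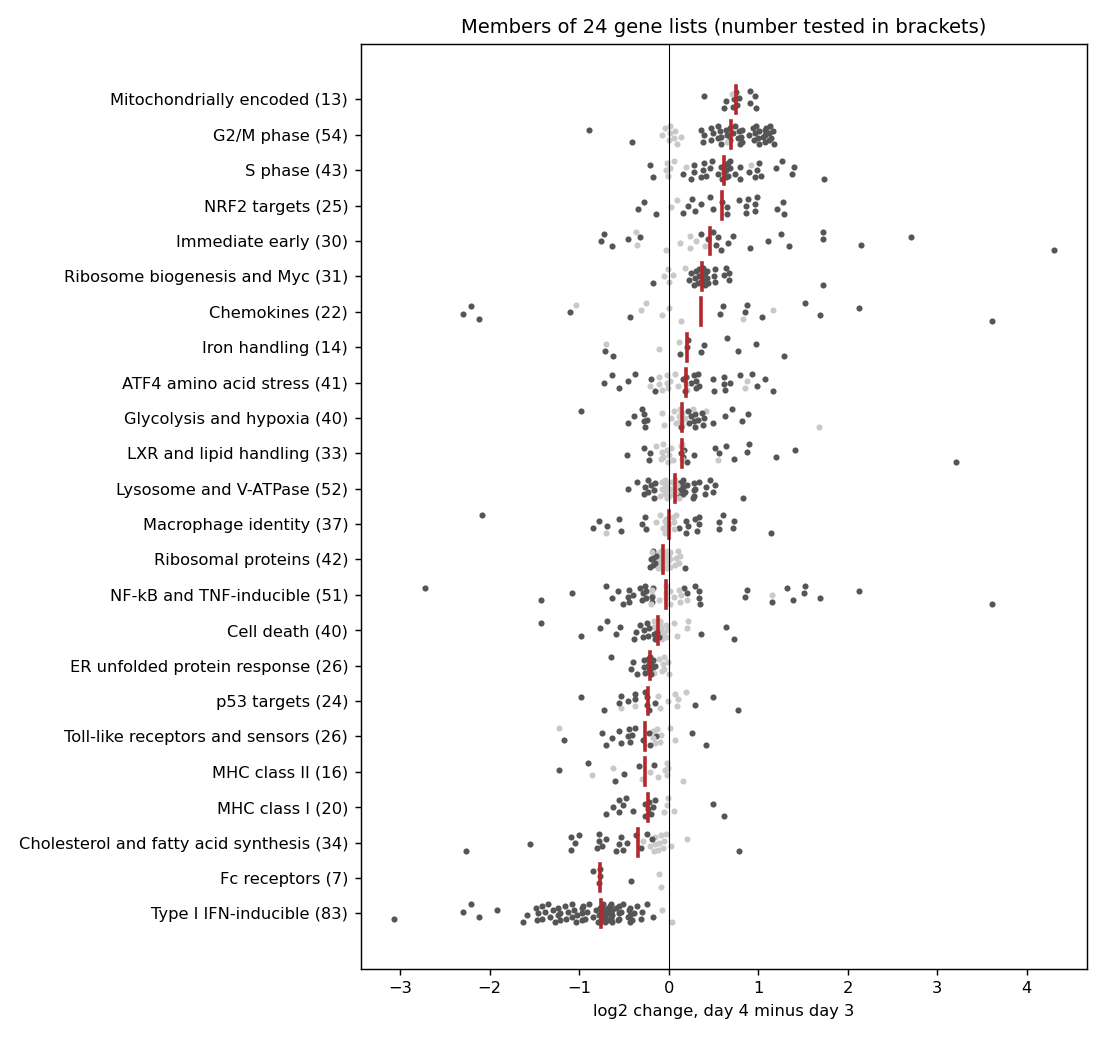
Log2 change from day 3 to day 4 (horizontal axis) of each tested member of 24 gene lists (rows, number of members in brackets), dark where the adjusted p is below 0.05 and pale elsewhere, with a red bar at the median. IFN-inducible genes lie almost entirely below 0, and mitochondrially encoded, G2/M, S phase and NRF2 genes mostly above.

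Markers of macrophage identity were mixed, with 14 of 37 that rose, 9 that fell and a median of 0.00. Without the FL/FL day 4 replicate 2, 11 rose and 9 fell. *Ccr2* (chr9:123901982-123913594), the chemokine receptor of monocytes, had 156, 106, 130 and 103 CPM on day 3 and 31.3, 23.2, 30.2 and 31.8 CPM on day 4 (-2.09 ± 0.19, adjusted p = 7.08e-04). *Lyz2*, which encodes lysozyme, had 29400 to 32300 and 16000 to 18600 CPM (-0.84), and *Cx3cr1* fell by 0.69. *Folr2* rose by 1.14, although 53.5% of its words are shared with other genes. *Csf1r* fell by 0.25 (adjusted p = 5.40e-04), from 5710 to 5930 CPM on day 3 to 4640 to 5200 CPM on day 4, and *Adgre1* did not pass the test (0.08, adjusted p = 0.229). Of 20 genes of colony-stimulating factor receptors and their signalling 6 fell and 2 rose (5 and 1 without the FL/FL day 4 replicate 2), and *Csf1* itself, which the cells can make, fell from 10.6 ± 0.87 to 5.65 ± 0.57 CPM.

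Alternative activation genes fell in 6 of 18 members and rose in 0, among them the lectin *Mgl2* (-1.64) and the checkpoint ligand *Pdcd1lg2* (-1.76, at 0.638 ± 0.14 CPM on day 3). Of 17 complement genes 5 fell and 1 rose, with *Cfb* and *C4b* at -1.06 and -0.94. *Cfb* did not pass without the FL/FL day 4 replicate 1 (adjusted p = 0.059, edgeR) or the WT/FL day 4 replicate 2 (0.0558), and *C4b* without the FL/FL day 3 replicate 1 (0.0574). Matrix genes rose in 7 of 31 members and fell in 3: the protease *Mmp9* had 16.0, 14.1, 14.3 and 13.0 CPM on day 3 and 47.2, 49.2, 58.2 and 49.3 CPM on day 4 (1.83 ± 0.08), and *Tgfbi*, a secreted adhesion protein, fell from 294.5 ± 22.3 to 131.9 ± 12.1 CPM (-1.16). *Bhlhe41* and *Nr1d1* of 17 clock genes rose by 0.56 and 0.54 and *Nfil3* fell by 0.77, with 4 that rose and 4 that fell. Of 31 cytokines and growth factors 8 rose and 8 fell, of 19 heat shock chaperones 9 rose and 2 fell, and of 29 autophagy genes 1 rose and 10 fell. Over all genes tested, 16.3% rose and 16.8% fell. The matrix, clock and cytokine lists are not set apart by counts of this size.

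Many markers of other cell types were at low levels, but *Bst2*, *Ly6a* and *Ighm* were not. *Bst2* had means of 527 CPM on day 3 and 340 CPM on day 4. The summed level on day 3 was 486 to 562 CPM for tested dendritic cell markers and 749 to 913 CPM for progenitor markers. The summed level of 8 tested neutrophil markers was 20.0 to 37.3 CPM on day 3 and 17.6 to 31.0 CPM on day 4, and 0 of them passed the test. Dendritic cell markers fell in 3 of 8, namely *Siglech* (0.317 ± 0.04 to 0.0571 ± 0.04 CPM), *Dpp4* (0.599 ± 0.32 to 0.164 ± 0.09 CPM) and *Bst2*, which is also an ISG. Osteoclast markers rose in 5 of 10 and their sum was 215 to 229 and 273 to 288 CPM, with *Dcstamp*, a protein of cell fusion, up by 1.23. Progenitor markers fell in 3 of 7, among them *Ly6a*, which is IFN-inducible too, with 495, 320, 495 and 356 CPM on day 3 and 190, 113, 185 and 139 CPM on day 4. Of 3 tested T, NK and B cell markers 1 fell, *Ighm*, from 197 ± 11.0 to 95.4 ± 12.1 CPM. Of 8 stromal markers *Kdr* fell, by 2.04, and *Postn* rose (adjusted p = 0.0439, edgeR) but had 0 counts in both WT/FL libraries of day 4. *Postn* no longer passed the test when any 1 of 6 libraries was left out, with adjusted p between 0.052 and 0.252 (edgeR). The 6 were all but the WT/FL day 3 replicate 2 and the WT/FL day 4 replicate 1. The only tested mast cell marker, *Hdc*, fell by 1.83, and 0 of 2 erythroid markers passed. The part of other cells in the gene groups above was not tested.

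Some genes of large change lie outside these lists. *Garin4* (chr1:190894781-190897014), a gene known from testis, had 0, 1, 0 and 0 counts on day 3 and 34 to 67 counts on day 4. Against a floor of 3 counts per library it was at least 15.2-fold higher, which covers counting error only. *Cd209f* and *Cd209g*, lectins of the DC-SIGN family, rose by 3.39 and 2.14 to 2.97 ± 0.95 and 1.17 ± 0.34 CPM, and share 22.2% and 20.4% of their words with other genes. *Mdk*, a secreted growth factor, rose by 3.16, *Wfikkn1*, a protease inhibitor, by 3.03, *Robo2*, an axon guidance receptor, by 2.62 and *Slc12a5*, a potassium chloride cotransporter, by 2.33, all from below 0.7 CPM in each day 3 library. In each of these 6 genes the day 4 libraries all lay above those of day 3, which the rule for naming them required.

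Decreases outside the lists were those of *Ms4a4c* (chr19:11382131-11404610), with 105, 104, 119 and 100 CPM on day 3 and 17.8, 19.8, 24.5 and 28.3 CPM on day 4 (-2.27 ± 0.10, adjusted p = 8.11e-07), and of *Tnfsf8*, the ligand of CD30, which went from 4.04 ± 0.79 to 0.670 ± 0.16 CPM (-2.58). *Serpina3f* and *Serpina3g*, protease inhibitors of a multigene family with 27.7% and 44.8% shared words, fell by 2.51 and 2.43, and their division between family members is uncertain. *Kbtbd11* fell by 2.51 and *Ddx4*, an RNA helicase known from germ cells, by 2.12, both from below 2 CPM in each day 3 library.

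A fit with an interaction of genotype and day called 1 of 13856 genes at an adjusted p below 0.05 (0.00722%), and 1564 had an unadjusted p below 0.05. The gene was *Stard9* (chr2:120459595-120562376), a kinesin of the centrosome, with 141, 141, 151 and 150 CPM on day 3 and 156, 164, 122 and 117 CPM on day 4, a difference of -0.52 (FL/FL minus WT/FL, adjusted p = 0.0484). The count was 0 when the WT/FL day 3 replicate 2 or either FL/FL day 3 library was left out, 4 and 7 without replicate 1 and 2 of WT/FL day 4, and 9 and 6 without replicate 1 and 2 of FL/FL day 4. On day 4 the deviation of a library from the day's mean went with exon length, with Spearman's rho across genes of 0.26 and 0.13 in WT/FL and -0.21 and -0.22 in FL/FL libraries, against -0.03 to 0.01 on day 3. The interaction had a rho of -0.26 with exon length, so a difference between the genotypes and one in RNA or library quality cannot be told apart. DESeq2 called 72 genes. A fit with runs of title numbers as a replicate block, whose meaning the labels do not give, called 573. The count thus depended on the fit. The median interaction was 0.05 over the IFN-inducible list, -0.24 over the G2/M list and 0.22 over ribosomal proteins. It was 0.17 over nuclear genes of the respiratory chain and 0.37 over alternative activation genes. In the edgeR fit without the block, 0 members of these lists passed the test of the difference.

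The same step was measured in 4-OHT-treated cells, with 2 libraries a day in each genotype, in a fit of all 32 libraries and 15257 genes. In WT/FL cells, which keep a wild-type allele, the step after 4-OHT differed from the untreated step in 2 genes at an adjusted p below 0.05 (0.0131%; 603 at an unadjusted p below 0.05), *Pbk* at 1.04 and *Kif22* at -0.89, and in FL/FL cells, where *Trex1* is deleted, in 1046 genes (6.86%; 2735 unadjusted). The median of the IFN-inducible list was -0.77 and -0.79 in untreated WT/FL and FL/FL cells, -0.80 after 4-OHT in WT/FL and 0.06 after 4-OHT in FL/FL cells. In 72 of its 83 members the step after 4-OHT in FL/FL cells was higher than the untreated step. *Ifit1bl1* fell by 3.48 in treated WT/FL cells and was at -0.23 in treated FL/FL cells, a difference from the untreated FL/FL step of 2.65 (adjusted p = 5.21e-05).

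The G2/M list had medians of 0.86 and 0.61 in untreated WT/FL and FL/FL cells, 0.65 after 4-OHT in WT/FL and -0.70 after 4-OHT in FL/FL cells, where 39 of 54 members were lower than in the untreated step. For NRF2 targets the medians were 0.57, 0.50, 0.34 and -0.17, with 19 of 25 lower, and for ATF4 genes 0.21, 0.20, 0.14 and -0.20, with 20 of 44 lower. Cholesterol and fatty acid synthesis genes had medians of -0.37, -0.43, -0.35 and -0.65, with 20, 21, 18 and 28 of 34 members that fell. *Myc*, *Dusp1* and *Cxcl2* had differences in FL/FL cells of -0.14, -0.11 and -1 that did not pass the test (adjusted p = 0.823, 0.848 and 0.204, edgeR). In treated WT/FL cells 0 members of these lists had a step that differed from the untreated one.

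**Figure D5:**
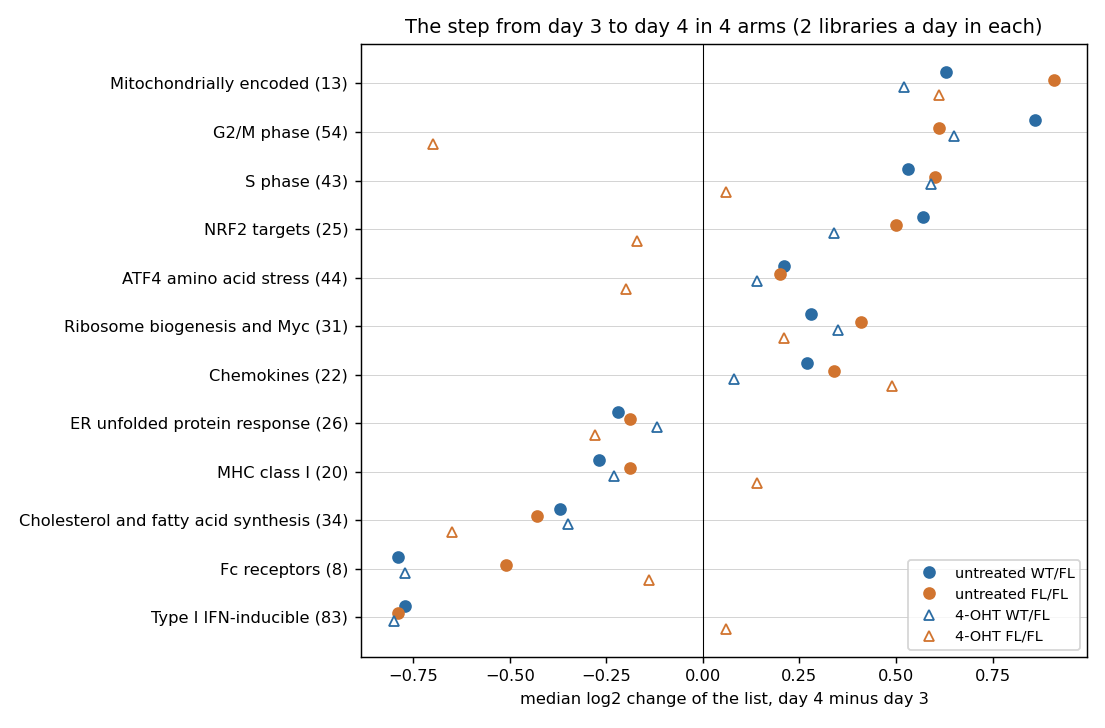
Median log2 change from day 3 to day 4 (horizontal axis) of 12 gene lists (rows, number of members in brackets) in untreated (filled circles) and 4-OHT-treated (open triangles) WT/FL (blue) and FL/FL (orange) cells, from a fit of all 32 libraries. The treated FL/FL cells lie at 0.06 for IFN-inducible and at -0.70 for G2/M genes, apart from the other 3 arms, which run from -0.80 to -0.77 and from 0.61 to 0.86.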

How the data were processed

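RNA was sequenced from BMDMs. The authors split the reads by library with JE, ran FastQC 11.9 for quality, and used Salmon and tximport for gene-level values on GRCm39. The annotation release is not given in the sources used here. The deposited table holds estimated counts, stored whole and not normalized; no rounding was needed, and tximport's length correction was not used. Symbols and coordinates came from GENCODE vM39, which matched 51048 of 54281 identifiers; the others held 0.283% of counts.

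The day effect over 8 libraries was fitted by edgeR 4.0.16 under R 4.3.3 (TMM factors, robust quasi-likelihood fit, genotype and day as terms, filter with a minimum count of 10, 5 residual degrees of freedom). CPM are TMM-scaled and log2 CPM used a prior count of 2. The thresholds of a call are those of the study. Interaction and 4-OHT steps were tested with group means. The S and G2/M lists came from Seurat 5.3.0 and the others were compiled by hand. The members and lists were chosen with earlier results of these data known. Named were *Trex1*, *Mki67*, *Cdkn1a*, *Csf1r* and *Cxcl10*, the 10 genes that increased most and the 10 that decreased most of all called protein-coding genes with at least 1 CPM and no overlap of libraries, up to 3 rising and 3 falling members per list, and up to 5 genes with an interaction. Others were picked after their values were seen. Shared sequence is given as the percentage of a gene's distinct 31-base transcript words that other genes' transcripts also hold on either strand. Alternatives were other factors, filters, samples, thresholds, DESeq2 1.42.0 and leaving out each library. Results for some genes are not reported here.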

Additional observations from a re-analysis of the deposited data

Results flagged for a closer look

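Within the 4 libraries of a day, 1 library lay far from the other 3 for 22 of 374 combinations of gene and day and for 4 of 84 combinations of gene list and day. Chance flags about 1 in 20 groups. The values below are those of the distant library, in CPM unless stated otherwise. On day 3, WT/FL replicate 1 had 11.1 for *Slc7a11* and 9.34 for *Cry1*, and WT/FL replicate 2 had 0.0231 for *Garin4*, which is 1 count, 681 for *Rpl7* and a mean of 7.04 log2 CPM over the complement list. FL/FL replicate 1 had 0.428 for *Pdcd1lg2*, 11.9 for *Vldlr*, 31.9 for *Nupr1*, 3.59 for *Egln3*, 96.7 for *Keap1* and 25.4 for *Rpl5*, and FL/FL replicate 2 had 1060 for *Rplp0* and 2.42 for *Meis1*.

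On day 4, WT/FL replicate 1 had 655 for *Tfrc*, 7.5 for *Cry1* and a mean of 6.47 log2 CPM over the list of LXR targets and lipid handling. WT/FL replicate 2 had 50.8 for *Folr2*, 23.2 for *Ccr2*, 109 for *Vmp1*, 3.72 for *Gsdme* and 11.2 for *Nfil3*. FL/FL replicate 1 had 0.0353 for *Dpp4* and a mean of 0.51 log2 CPM over the neutrophil markers, and FL/FL replicate 2 had 1.48 for *Serpina3g*, 0.195 for *Ddx4* and a mean of 5.16 log2 CPM over the cell death list. For *Serpina3g* the other 3 libraries lay between 0.617 and 0.644, and for *Ccr2* between 30.2 and 31.8.

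The step from day 3 to day 4 differed between the untreated genotypes for *Stard9* (-0.52, FL/FL minus WT/FL) in the fit of the 8 libraries. The fit of all 32 libraries called 0 genes. The count was also 0 without the WT/FL day 3 replicate 2 or either FL/FL day 3 library. After 4-OHT the step differed from the untreated one in 2 genes in WT/FL cells and in 1046 genes in FL/FL cells, each by a test of the difference itself.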

How the results depend on the processing

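Neither animals nor batches are given for the libraries, but the title numbers run on over the days in 4 sets of untreated libraries, and nothing states what such a set is. Deviations from the group mean correlated across genes within a set by 0.1 in WT/FL and 0.09 in FL/FL cells. With 2 libraries a group these values cannot decide whether the sets are pairs. The main fit did not use the sets. With these sets as a replicate block, chosen after seeing the data, 83 genes were called higher and 68 lower, 2314 rose and 2379 fell, and the genotype difference covered 573 genes where the fit without the block had 1. Of the named genes *Grb2*, *mt-Nd4l* and *Postn* no longer had an adjusted p below 0.05 under the block. With a minimum of 1 CPM in 4 libraries, 41 genes were called higher and 38 lower. In WT/FL libraries alone 55 were called higher and 36 lower, and 1313 rose and 1490 fell; in FL/FL libraries alone 55 were called higher. The smaller number of libraries or genes is part of these settings. At an adjusted p below 0.05 and without a minimum change, 2257 genes were higher and 2321 lower. A test against a change of 1.5 log2 units at an adjusted p below 0.01 left 5 and 2. Leaving out each library gave 70 to 78 called higher, 55 to 68 called lower, 1840 to 2073 that rose and 1943 to 2167 that fell. The genotype difference covered 0 genes in the 32-library fit, 72 with DESeq2 and 0 to 9 when 1 library was left out, and the difference after 4-OHT in WT/FL cells covered 1 gene when that genotype was fitted alone; the cause was not tested. In WT/FL libraries alone *Postn* was at -2.32 (adjusted p = 0.634) and *Stard9* at 0.18 (adjusted p = 0.041), opposite to the pooled fit; the cause was not tested. DESeq2 called 183 genes, of which 155 were among the 156 of edgeR. RLE factors, upper-quartile factors and library totals gave medians over all genes of 0.005, 0.019 and 0.018, and 48.9%, 52.6% and 52.3% of the genes that moved rose, against 49.3% with TMM. Of 187 named genes, 45 no longer had an adjusted p below 0.05 in WT/FL and 24 in FL/FL libraries alone. The number was 2 with DESeq2 and 12 in a fit of 16 untreated libraries. This threshold is that of genes that rose or fell, not that of a call. For genes below 1 CPM depth limits what could be seen.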
